A study of Drosophila melanogaster with 2 samples.

Results

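Sugarbabe (sug), a zinc finger protein of the GLIS-related kind that regulates transcription, was bound at 1742 sites that lay inside introns, more than 1 kb and at most 5 kb from the nearest transcription start site (TSS). They stood beside 7600 other summits of the reproducible peak set, made up 18.7% of the whole (95% Wilson interval 17.9 to 19.5%) and fell in 1586 distinct peak intervals. A summit, the base of highest enrichment in a peak, was counted when it lay in an annotated gene, in no annotated exon, and at that distance from a TSS of any gene on dm6. Within the IDR set position alone chose these sites, while the set itself had been chosen by the authors on ranks in both replicates. The study measured binding by chromatin immunoprecipitation and sequencing (ChIP-seq) in whole Drosophila melanogaster embryos of mixed sex, collected at 8 to 24 hours, from a stable transgenic line in which sug carries a C-terminal GFP and is precipitated through GFP. The samples form 1 group of 2 biological replicates, and embryos without the tagged protein were not analysed here. Whether the line has additional copies of the sug locus, and which cells make the fusion protein, is unknown here. A whole embryo mixes all its tissues, so strong binding in few cells and weak binding in many cannot be told apart.

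Sug is known as an early responder to dietary sugar, downstream of the sensor pair Mondo and bigmax (Mlx), and as an activator of fatty acid synthesis genes. GLIS and GLI zinc fingers bind DNA elements rich in runs of C. Introns of fly genes, first introns above all, hold many enhancers, which are stretches of DNA that other transcription factors such as the GATA family also bind. The peak set came from a comparison of both replicates by the irreproducible discovery rate (IDR), which favours peaks that rank consistently high in both. The authors' signal value of a summit is a score and is set here only against other summits of the same list. The classes used for comparison were 717 intronic summits more than 5 kb from a TSS, called deep intronic, and 6054 promoter summits within 1 kb of a TSS.

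The DNA around 11 of the strongest intronic summits is shown because it holds the elements on which the sequence results turn. Each line is the plus strand of dm6 from the RefSeq copy of the assembly, 121 bases centred on the summit, and capitals mark runs of at least 5 C, or GATAAG, on either strand. The first 9 regions carry such elements, and the last 2, Trl and CG11050, carry neither. The regions are chr3R:23210893-23211013 in cnc, the fly Nrf2 homolog of the oxidative stress response, chr3R:30102944-30103064 in sima, the hypoxia-inducible factor alpha subunit, and chr2L:18693956-18694076 in CG10383. Next come chr3L:12836259-12836379 in nebu, chrX:6355270-6355390 in kdn, citrate synthase, and chr3R:23940318-23940438 in Gdh, glutamate dehydrogenase. Then come chrX:14949386-14949506 in pdgy, an acyl-CoA synthetase, chr2L:8697948-8698068 in Hnf4, a nuclear receptor of lipid catabolism, and chr3R:30308169-30308289 in heca. The regions without capitals are chr3L:14759384-14759504 in Trl, the GAGA factor, and chr2L:6612651-6612771 in CG11050. The sima region repeats its C run in tandem, Gdh joins a run and a GATAAG end to end, and heca has GATAAG on both sides of its runs.
cnc: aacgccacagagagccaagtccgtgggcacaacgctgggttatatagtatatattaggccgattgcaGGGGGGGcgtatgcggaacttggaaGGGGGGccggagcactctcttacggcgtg
sima: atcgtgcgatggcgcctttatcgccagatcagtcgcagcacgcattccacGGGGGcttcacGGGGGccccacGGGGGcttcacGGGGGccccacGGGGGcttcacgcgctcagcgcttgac
CG10383: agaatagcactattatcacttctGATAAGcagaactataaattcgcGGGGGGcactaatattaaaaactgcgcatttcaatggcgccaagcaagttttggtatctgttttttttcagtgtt
nebu: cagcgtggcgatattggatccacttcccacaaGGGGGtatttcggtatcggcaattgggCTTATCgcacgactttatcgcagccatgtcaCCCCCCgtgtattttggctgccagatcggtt
kdn: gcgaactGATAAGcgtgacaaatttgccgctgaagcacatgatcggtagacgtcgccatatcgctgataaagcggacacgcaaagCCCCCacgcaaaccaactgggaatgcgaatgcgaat
Gdh: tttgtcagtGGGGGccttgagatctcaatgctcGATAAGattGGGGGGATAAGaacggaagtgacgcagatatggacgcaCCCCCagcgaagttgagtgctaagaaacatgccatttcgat
pdgy: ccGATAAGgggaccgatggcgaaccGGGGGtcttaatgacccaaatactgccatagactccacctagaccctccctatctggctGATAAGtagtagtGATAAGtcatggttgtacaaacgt
Hnf4: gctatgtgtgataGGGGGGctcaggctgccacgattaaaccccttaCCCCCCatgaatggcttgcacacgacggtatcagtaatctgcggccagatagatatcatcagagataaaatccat
heca: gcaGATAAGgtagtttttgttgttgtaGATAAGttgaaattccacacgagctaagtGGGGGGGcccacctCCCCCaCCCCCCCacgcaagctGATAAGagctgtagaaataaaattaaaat
Trl: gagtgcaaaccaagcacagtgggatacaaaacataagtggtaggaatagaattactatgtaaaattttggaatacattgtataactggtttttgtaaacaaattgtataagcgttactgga
CG11050: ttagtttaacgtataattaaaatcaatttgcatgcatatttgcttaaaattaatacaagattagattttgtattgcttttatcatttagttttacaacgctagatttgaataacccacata

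Within the band of 1 to 5 kb the summits thinned with distance. There were 806 between 1 and 2 kb, 437 between 2 and 3 kb, 310 between 3 and 4 kb and 189 between 4 and 5 kb. Set against the length of non-exonic gene sequence available at each distance, these made 115, 81.9, 72.4 and 54.0 summits per megabase. Over the whole band, introns held 86.5 summits per megabase of 20.1 megabases, against 33.0 per megabase of intergenic sequence at the same distances, where 447 summits lay in 13.5 megabases. Introns were the denser in each of the 4 bins of 1 kb, but not within 1 kb of a TSS, where introns held 218 per megabase and intergenic sequence 337. Deep introns held 25.4 per megabase. These densities are a description and were not tested. The median signal was 426 in the nearest bin and 395 to 402 in the other 3.

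**Figure D1:**
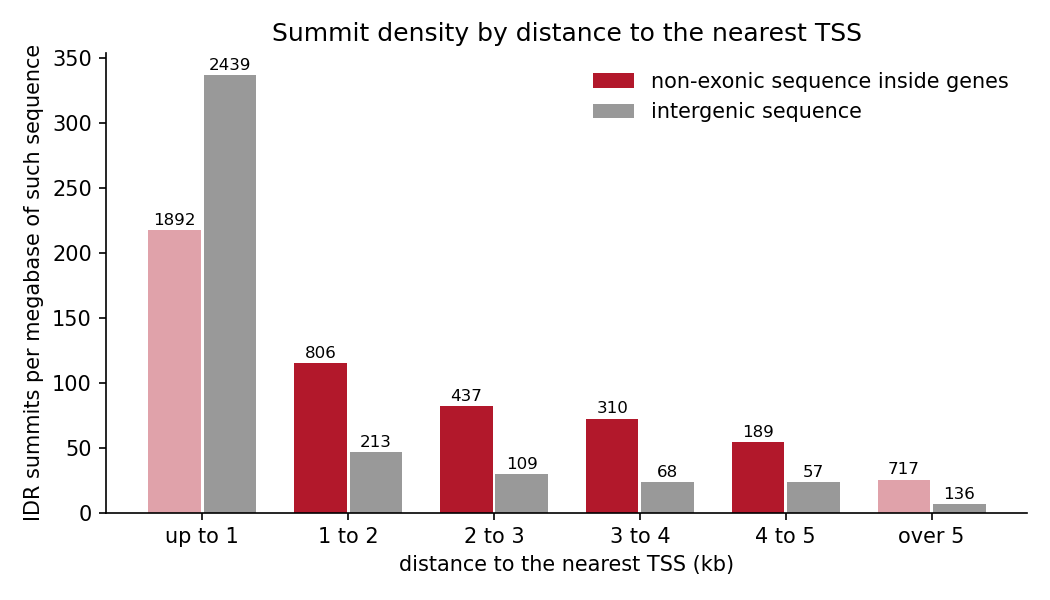
Summits of the IDR set per megabase of sequence (vertical axis) by distance to the nearest TSS in kb (horizontal axis), for non-exonic sequence inside genes (red, pale outside the 1 to 5 kb band) and for intergenic sequence (grey); the number over each bar counts its summits. The red bars of the band run from 115 down to 54.0 per megabase and each stands above its grey neighbour.

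Most of these intronic sites belonged to the gene whose start was nearest. The nearest TSS was one of the host gene itself for 1401 of 1742 (80.4%), and 1087 of these 1401 (77.6%) lay downstream of it. For 341 (19.6%) the nearest TSS was that of another gene, nested in the host or beside it, and for 156 (8.96%) it was that of a non-coding gene. Of all 1742, 1289 (74.0%) lay in the first intron of at least 1 annotated transcript, and the introns had a median length of 6434 bp. How much of the available sequence lies in first introns, downstream of a host start or in introns of such length was not measured. These shares therefore describe the sites and show no excess over that sequence. The nearest TSS itself had an IDR summit within 1 kb for 1149 (66.0%), against 403 of 717 deep intronic summits (56.2%). With each position counted once, 768 of the 1188 nearest TSS positions of the 1742 sites (64.65%) had one. Of all 23581 annotated TSS positions 8637 (36.6%) did. In 249 cases the peak interval of the intronic summit reached to 1 kb or less from a TSS, and 335 summits shared an interval with another summit, so some are shoulders of a broader peak. Just inside the 1 kb limit were summits in CG8034 at 1001 bp with a signal of 242, mino at 1002 bp with 305 and Hsp83 at 1004 bp with 682, and just outside it, all at 999 bp, were summits in tai with 329, CG11883 with 404 and Tab2 with 1339. At the 5 kb limit the summits inside were in CG46339 at 4996 bp with 242, ush at 4993 bp with 10749 and CG3764 at 4988 bp with 415, and those outside were in Sesn at 5009 bp with 420, Eip75B at 5011 bp with 270 and Eip74EF at 5015 bp with 263.

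The IDR set favours peaks that rank consistently high in both replicates, so recovery in the replicate lists is largely fixed by that choice. It is no separate finding. A summit of both replicate lists lay within 100 bp of 1590 (91.3%, 95% Wilson interval 89.9 to 92.5%), a summit of replicate 1 alone of 79, a summit of replicate 2 alone of 67, and neither of 6. The share was 1.33 percentage points below the 92.6% of deep intronic summits (95% interval of the difference -3.54 to 1.15, adjusted p = 0.297) and 1.80 points above the 89.5% of promoter summits (0.193 to 3.27, adjusted p = 0.0608), both by Fisher's exact test and neither past the threshold. All IDR summits together stood at 90.1%. Over the 1590, the ranks of the replicates' signals correlated at a Spearman rho of 0.715, given as a description since the summits share their libraries. Summits are not replicates of a condition, so these p-values, and all that follow, describe this peak set and not the spread between embryo collections.

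**Figure D2:**
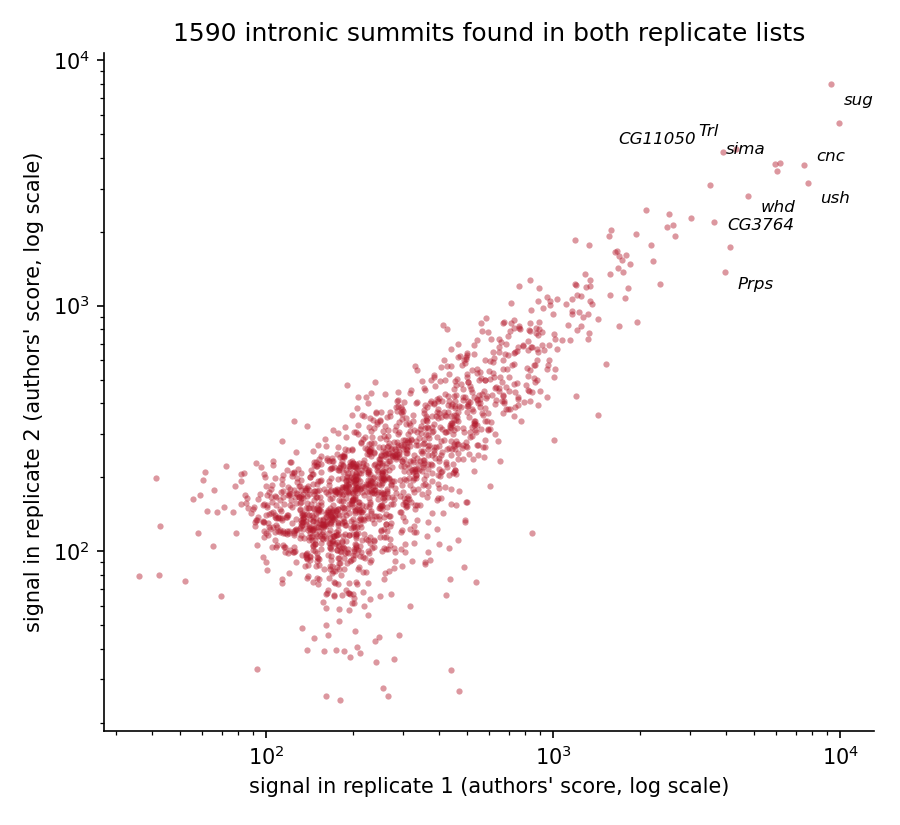
Signal of each of the 1590 intronic summits found in both lists, in replicate 1 (horizontal axis) and replicate 2 (vertical axis), both the authors' score on a log scale; 1 point is 1 summit, and genes of strong summits are named. The strong summits are strong in both replicates, with sug at the far end and Prps the farthest below the other named points.

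The signal of these sites spanned a wide range. The median was 410 with quartiles of 296 and 675 and extremes of 224 and 17485, against medians of 382 for deep intronic and 435 for promoter summits. Signal stood above the median of the IDR set in 834 of the 1742 (47.9%), against 51.7% of promoter summits, a difference of -3.81 points (95% interval -6.46 to -1.14, Fisher's exact test, adjusted p = 0.0102). Among the highest summits of replicate 1 alone this difference was -1.84 points (exact adjusted p = 0.182), and among those of replicate 2 alone it was -5.60 points (adjusted p = 8.95e-05). Against the 43.8% of deep intronic summits the difference was 4.08 points (-0.257 to 8.37, exact adjusted p = 0.0683). Among the highest summits of replicate 2 alone it was 6.19 points (exact adjusted p = 0.00454), and among those of replicate 1 alone 3.57 points (adjusted p = 0.182). Among the 100 highest summits of the IDR set, 20 were of this kind, 5 were deep intronic and 69 were promoter summits.

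Among the intronic sites the 2 highest signals lay in the gene of the factor itself. The number of copies of the sug locus in this line is unknown here, and its bearing on these signals was not tested. All 3 sites in sug were in its first intron, in 1 interval at chr2R:12924112-12929246 that held 5 summits. The summit at 12925590, 1023 bp downstream of a sug TSS, had a signal of 17485 in the IDR set, 9317 in replicate 1 and 8018 in replicate 2 and ranked 4 in the whole set. The one at 12927338, 1522 bp upstream of a sug TSS, had 15499, with 9933 in replicate 1 and 5565 in replicate 2. The one between them at 12926393 had 6694, with 4139 in replicate 1 and 1732 in replicate 2. The scores of replicate 1 and replicate 2 come from lists of their own and are not on 1 scale.

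Among the next highest sites, 4 of the genes encode regulators of transcription. In cnc the summit at chr3R:23210953, 3604 bp from its nearest TSS, had a signal of 11170, with 7489 in replicate 1 and 3749 in replicate 2, ranks 9 and 27. Ush, a FOG-family partner of GATA factors, held a summit at chr2L:484681 with 10749, 7697 in replicate 1 and 3173 in replicate 2, and another at chr2L:481080 with 6567, 3517 in replicate 1 and 3099 in replicate 2. The nearest start to both was that of cbt (cabut), a zinc finger factor known to be induced by sugar, at 4993 and 1392 bp. Sima had 9888 at chr3R:30103004, with 6153 in replicate 1 and 3824 in replicate 2. Trl, whose product the GAGA factor opens chromatin, had 8569 at chr3L:14759444, with 4345 in replicate 1 and 4351 in replicate 2. These genes ranked within the first 50 summits of both lists.

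Several enzymes were among the other strong sites. Whd, carnitine palmitoyltransferase, which carries fatty acids into mitochondria, had 7530 at chr2R:10476680, with 4776 in replicate 1 and 2810 in replicate 2. Prps, phosphoribosyl pyrophosphate synthetase, had 5326 at chr3L:9692611, with 3969 in replicate 1, rank 34, and 1373 in replicate 2, rank 205, the widest gap in rank among the 15 highest. The remaining sites of the 15 highest were in CG10383 with 9652, in CG33199 and CG8229, which overlap, with 9488, in CG11050 with 8121, in CG3764 with 5746, in nebu with 5244 and in mtd with 4865. Their lowest and highest signals were 2529 and 6037 in replicate 1, and 2200 and 4214 in replicate 2. Chosen after their values were seen, as metabolic genes among the 50 highest, were kdn with 4717, Gdh with 4608, pdgy with 3963, su(r), dihydropyrimidine dehydrogenase, with 3341, the mitochondrial carrier Rim2 with 3105, Pect, of phosphatidylethanolamine synthesis, with 2676, eas, ethanolamine kinase, with 2484 and Aldh, aldehyde dehydrogenase, with 2426. For Aldh no summit of replicate 1 lay within 100 bp.

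The sites fell in 964 of the 7082 genes that have any non-exonic sequence in the band, which is 13.6% of these eligible genes. Of 947 protein-coding hosts, 527 held 1 site, 212 held 2, 99 held 3, 54 held 4 and 55 held at least 5. Hosts also tended to be bound at their start: 82.7% had a promoter summit, against 42.4% of eligible protein-coding genes without an intronic site. The share with a site depends on how much sequence a gene offers. Of protein-coding genes with 3744 bp or more in the band 35.8% had a site, of those with 611 to 3743 bp 17.5%, of those with 144 to 610 bp 2.04%, and of the 1716 with less none. Within the first 3 of these size groups the share of hosts with a promoter summit was 81.9, 84.0 and 85.7%, against 35.1, 42.9 and 46.1% of genes without a site, so the gap was there at each size. These shares were not tested.

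A few genes held long arrays of sites. Ush and shn, a zinc finger protein of dpp signalling, had 14 each, Eip75B, a nuclear receptor of the ecdysone cascade, and Pdp1, a PAR bZIP factor of the circadian clock, had 12 each, and CG3764 and CG1677 had 10 each. The signal ranged from 232 to 10749 in ush, 257 to 1273 in shn, 225 to 4542 in Eip75B, 258 to 903 in Pdp1, 229 to 5746 in CG3764 and 224 to 1152 in CG1677. Of these 6, CG3764 had the most sites for its available sequence, 10.5 per 10 kb, against 1.97 to 6.38 in the others. All sites in shn, Eip75B and Pdp1 were nearest to a start of the gene itself, but none of those in CG1677 were. Its 10 were nearest to starts of brk, a repressor of dpp target genes, CBP, unc-119 and CG42780, and they lie also within the long non-coding gene lncRNA:CR44357. In ush 5 sites were nearest to its own starts, 5 to cbt and 4 to non-coding genes. The 7 sites of cnc had signals of 11170, 983, 703, 557, 472, 395 and 327, and the first stood far above the others.

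**Figure D3:**
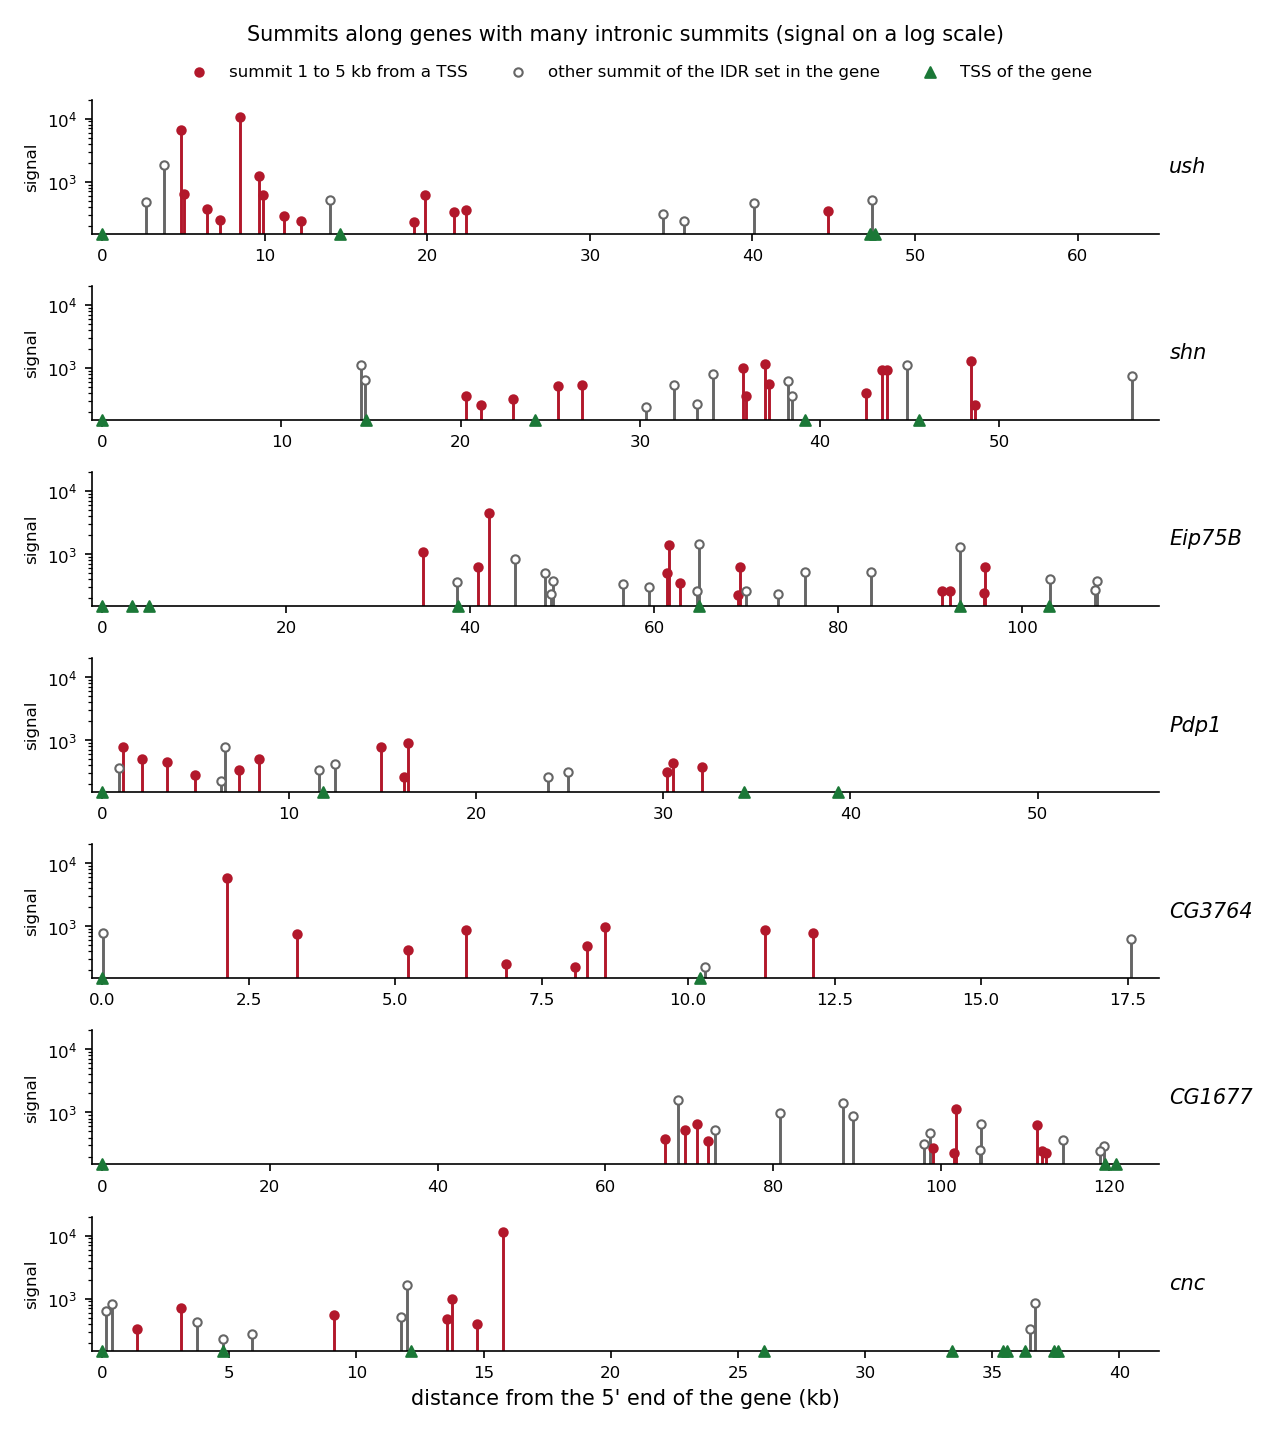
Summits of the IDR set along the 6 genes with the most intronic sites and cnc, by distance in kb from the 5′ end of the gene (horizontal axis) and signal on a log scale (vertical axis); red filled points are intronic summits 1 to 5 kb from a TSS, open points are other summits, and green triangles are starts of the gene. In ush the strong sites crowd the first 10 kb, and in Pdp1 and shn sites of lower signal surround several starts. Eip75B also has sites around several starts, the highest at 4542, and in cnc 1 summit of 11170 stands far above the rest.

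Gene lists drawn from the known biology of sug and of the embryo were chosen with earlier results of these data known, so their counts are no independent evidence. Sites lay in 7 of 9 sugar-responsive regulators, in 9 of 12 genes of the ecdysone cascade and in 1 of 9 genes of glycolysis. The lists are given by counts, to be read against 13.6% of eligible genes and against the gene sizes above, and no list was tested. Of sugar-responsive regulators, 7 of 9 eligible genes held a site: sug, Mondo with its strongest at 1907, the nuclear receptor Hr38 at 1157, crp, daw, foxo and Smox. The signal in Mondo, the sugar sensor, was 1002 in replicate 1 and 921 in replicate 2, though the nearest start was that of the taste receptor gene Gr39a. Of the ecdysone cascade, the steroid response that times development, 9 of 12 held 33 sites, with EcR, the hormone receptor, at 1114 and Hr4 at 917 after Eip75B. Of metabolic nuclear receptors 3 of 6 did: Hnf4 with 5 sites, the strongest at 3309 and 2381, Hr38, and Hr96, a sensor of dietary lipids and xenobiotics, at 616. Clock and PAR bZIP genes held sites in 5 of 10, with cwo, a repressor of the clock, at 597 and sgg, a clock kinase, at 489 after Pdp1. The median gene in the sugar-responsive list offered 3.32 kb in the band and in the ecdysone list 14.7 kb.

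Enzymes of lipid and sugar metabolism differed in their counts. Of lipid synthesis and storage genes 8 of 18 held 20 sites, with bmm, the main triglyceride lipase, at 2069, FASN1, fatty acid synthase, at 1517 and the lipid droplet protein Lsd-2 at 1199. Bmm held 6 sites, of which the strongest was nearest to the start of mop, with 1163 in replicate 1 and 927 in replicate 2. FASN1 held 3, and the strongest, 1125 bp from its own start, had 889 in replicate 1 and 648 in replicate 2. Glycolysis had 1 of 9, Pgi at 339, and sugar digestion and transport had 2 of 12, Tps1, of trehalose synthesis, at 758 and Treh, trehalase, at 631. These genes offered little sequence, a median of 0.465 kb per eligible gene of glycolysis and 0.291 kb of sugar digestion and transport, against 1.63 kb of the lipid list. Of oxidative stress genes 5 of 8 did, with Cat, catalase, at 1436 and Trx2, a thioredoxin, at 889 after cnc. Insulin and TOR signalling had 4 of 17, with the kinase S6k at 1960, the insulin receptor InR at 845 and the transcription factor foxo at 674. Autophagy had 2 of 10, Atg17 at 2842 and the kinase Atg1 at 466.

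Developmental signalling lists ranged widely, both in counts and in the sequence their genes offered in the band. The median eligible gene offered 7.64 kb in the wnt list, 6.24 kb in the GATA list and 4 kb in the EGFR list. It offered 3.81 kb in the Notch list, 3.80 kb in the Hox list and 2.65 kb in the GLI list. In the hedgehog list it offered 2.45 kb, in the dpp list 2.16 kb and in the ribosomal protein list 0.316 kb. GATA factors with ush had 4 of 6, with GATAd at 1046 and GATAe at 424, and dpp and activin signalling 7 of 15, with the receptor tkv at 1693 and the inhibitor Dad at 1037. EGFR and Ras signalling had 5 of 11, with the inhibitor aos at 1092 and the ETS factor pnt at 981 with 7 sites, and wnt signalling 5 of 11, with the receptor fz2 at 1087. Hedgehog signalling had 3 of 10, with the ligand hh at 1453, the receptor ptc at 544 and rdx at 403. Of the GLI, GLIS and ZIC relatives of sug, only sug itself of 4 did. Notch signalling had 2 of 8, with mam at 1092, Hox and segmentation genes 1 of 11, Abd-B at 709, for which replicate 1 had no summit within 100 bp, and cytoplasmic ribosomal proteins 0 of 2 eligible.

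Counts for marker genes of embryonic tissues were not tested against each other, and they assign no binding to a cell type in a whole embryo. Gut and tubule markers had 6 of 11, with Hnf4 and with cad at 1207, and fat body markers 4 of 10, with FASN1 and with vkg, a collagen, at 426. Somatic muscle markers had 4 of 11, with Mef2 at 1007. Epidermis and trachea markers had 2 of 11, with grh at 535 and crb at 505. Neuron and glia markers had 2 of 15, with Fas2 at 434 and nrv2 at 308, and haemocyte markers 1 of 8, ush. Germline markers had 1 of 6, vas, where a site of 2394 was nearest to the start of vig. The median eligible gene offered 8.01 kb in the gut and tubule list, 1.35 kb in the fat body list, 4.83 kb in the muscle list, 3.58 kb in the epidermis and trachea list, 5.64 kb in the neuron and glia list, 0.542 kb in the haemocyte list and 0.370 kb in the germline list.

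Sequence elements set the summits apart from the DNA beside them. Of 20 short words searched on both strands within 100 bp of the summit and in a window of the same 201 bp centred 500 bp to the left, 5 were more frequent at the summit and 3 less (exact McNemar test, adjusted p under 0.05). GATAA, the core of GATA factor sites, was at 1084 of the 1742 summits (62.2%), against 40.1% of left flanks and 40.8% of right flanks (exact adjusted p = 8.45e-37). CCCCCC was at 216 summits (12.4%), against 5.28% and 4.59%, or 2.51 times the mean flank (exact adjusted p = 1.46e-12). CGATA, the core of BEAF-32 sites, which shares bases with GATAA where they join as CGATAA, was at 36.5%, against 23.6% and 22.0% (exact adjusted p = 2.69e-16). The other rises were of the CA repeat CACACACA, at 8.32% against 5.68% to the left (exact adjusted p = 0.00816), and of CACGTG, the E-box that Mondo and bigmax can bind, at 3.73% against 2.01% to the left (adjusted p = 0.00823). CACGTG was at 3.27% of right flanks, and against these it did not pass (exact adjusted p = 0.804). Nor did it pass with a 50 bp window, with the flank at 1000 bp, above the median signal or in the highest summits of replicate 2 alone, where its adjusted exact p-values were 0.551, 0.390, 0.208 and 0.0550. CACACACA missed the threshold with a 50 bp window (exact adjusted p = 0.0881) and above the median signal (adjusted p = 0.312).

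The other 3 words that passed were less frequent at the summit than to its left. AAAAAAAA was at 8.78%, against 14.9% of left flanks (exact adjusted p = 1.15e-07), the C/EBP core TTGCNNAA at 14.0% against 20.7% (adjusted p = 5.80e-07), and the homeodomain core TAATTA at 12.2% against 15.4% (adjusted p = 0.0166). Against a flank 1000 bp away TTGCNNAA (exact adjusted p = 0.236) and TAATTA (adjusted p = 0.759) no longer passed, and TAATTA also missed the threshold against the right flank (adjusted p = 0.560). The GC content of the summit windows had a median of 42.3%, against 39.8% of the left flanks. This bears on all these words, and its part in the differences was not tested. Flank windows were not limited to introns and could reach exons or DNA within 1 kb of a TSS, which was not tested either. The GLI-type site GACCACCCA was at 3 summits and 2 left flanks, and the GC box CCGCCC at 7.87% against 6.32% (exact adjusted p = 0.190). TATCGATA, the DRE of promoter architecture, GAGAGAG of the GAGA factor, CAGGTA of Zelda, GGTCACAC of M1BP, TGACTCA of AP-1, TGACNNNGC of cnc and Maf, TTACNTAA of PAR bZIP factors, AGGTCA of nuclear receptors, TGTTTAC of forkhead factors and TGACGTCA of CREB did not pass either.

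**Figure D4:**
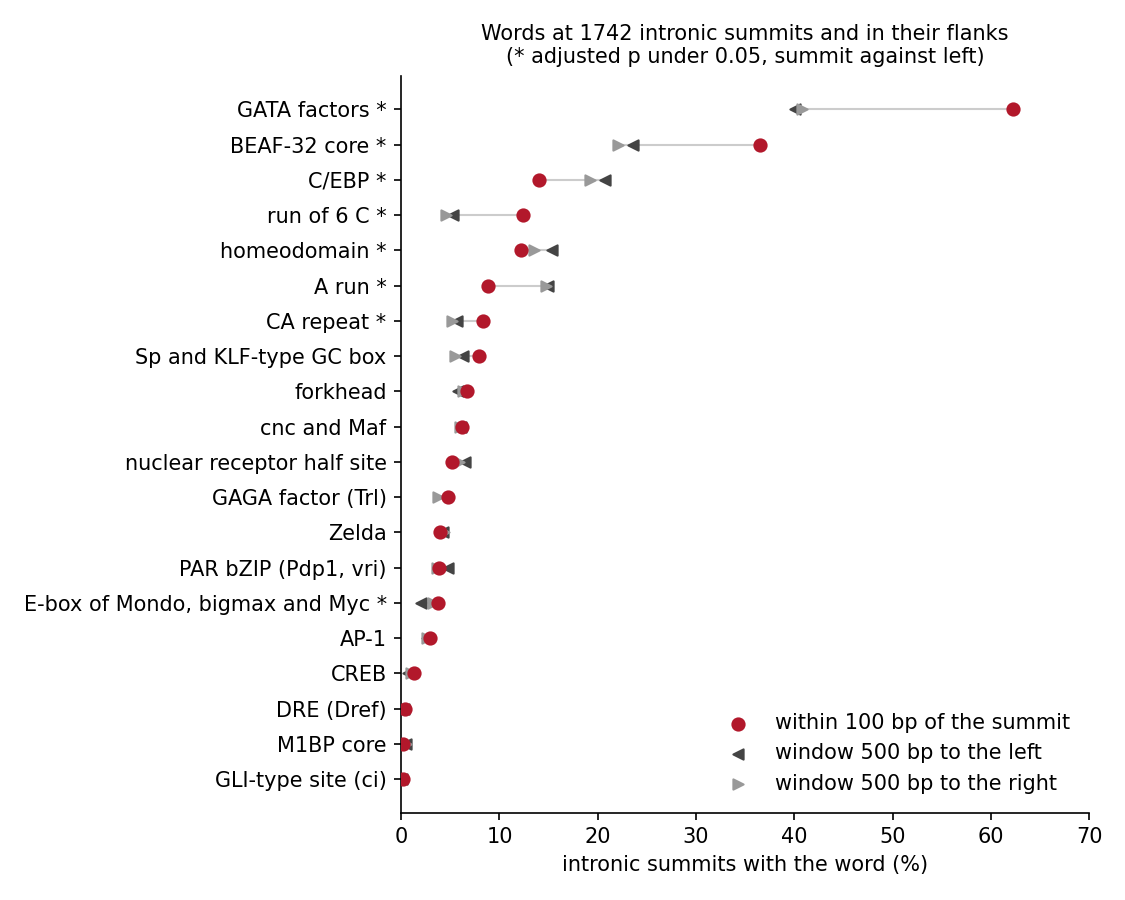
Share of the 1742 intronic summits (horizontal axis, percent) with each of 20 words within 100 bp of the summit (red), in the window 500 bp to the left (dark triangle) and in that 500 bp to the right (grey triangle); stars mark adjusted p under 0.05 against the left. The GATA word stands at 62.2% against about 40% in the flanks, and the run of 6 C at 12.4% against 5.28% and 4.59%.

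A search over all 2080 hexamers, made after the words had been seen, was led by the same elements. More frequent at the summit than in the left flank were 135 hexamers, 6.49% of those tested, and less frequent were 112, which is 5.38%. GATAAG, read as CTTATC on the other strand, led with 608 summits (34.9%), against 222 left flanks (12.7%) and 230 right flanks (exact adjusted p = 2.54e-50). ACCCCC followed the GATA words, at 232 summits against 85 left flanks (exact adjusted p = 2.02e-15). Of the 135, 16 contained GATA and 27 contained CCCC, and the 92 with neither include shifted copies of the GATA site such as ATAAGG. They also include hexamers unlike either element, such as ACGCAC at 190 summits against 109 left flanks and GGCTGA at 154 against 80. Against the right flank 155 hexamers were more frequent at the summit, and 89 of these were among the 135. The leading hexamer in the other direction was ATGCAA, at 194 summits against 346 left flanks (exact adjusted p = 1.60e-10). A run of 5 C, added for that reason, was at 545 summits (31.3%), against 278 left flanks and 287 right flanks (16.5%, exact McNemar test, adjusted p = 3.96e-25).

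In bins of 20 bp GATAAG reached 6.72% of the intronic summits in the bin centred 10 bp to the left, against 4.05% at most of deep intronic and 3.11% at most of promoter summits. In the bin centred 390 bp to the right it was at 1.32% of the intronic summits. The run of 6 C was at 2.81% of them in the bin centred 10 bp to the right and at 0.689% in the bin at 390 bp. GATAA was at 54.6% of summits with a run of 6 C and at 63.3% of those without, a pair of shares that was not tested, and 560 of the 1742 had neither.

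**Figure D5:**
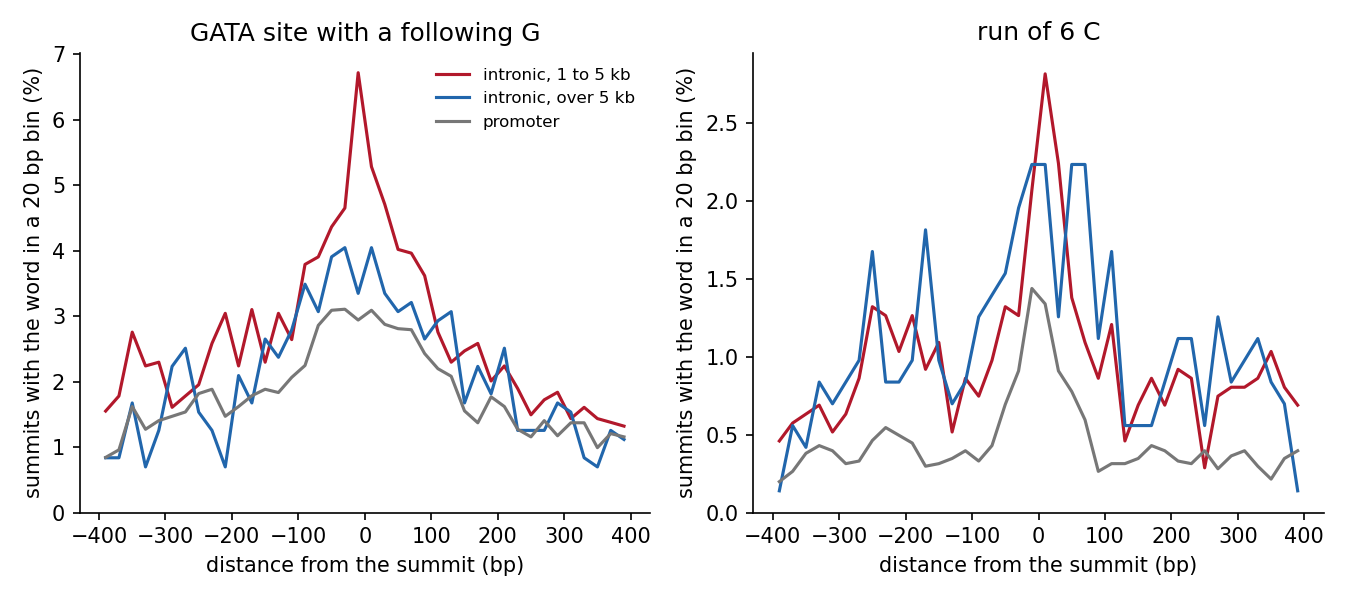
Share of summits with GATAAG (left) or a run of 6 C (right) in bins of 20 bp (vertical axes, percent) by distance from the summit in bp (horizontal axes), for intronic summits 1 to 5 kb from a TSS (red), deep intronic (blue) and promoter summits (grey). The red line reaches 6.72% for GATAAG and 2.81% for the run of 6 C, both within 20 bp of the summit; the blue line has 717 summits and varies from bin to bin.

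Against deep intronic summits, 2 of the 20 words were more frequent at the sites 1 to 5 kb away and 1 was less frequent. GATAA was at 62.2% of these sites, against 52.7% of deep intronic summits, a difference of 9.51 points (95% interval 5.21 to 13.8, Fisher's exact test, adjusted p = 0.000114). GATAAG was at 34.9% against 25.9% (exact adjusted p = 8.42e-05), but it was picked as the leading hexamer at these same sites. Its p-value does not allow for that choice. CGATA was also more frequent, by 5.97 points (exact adjusted p = 0.0207), or by 5.30 points with the highest summit of each interval (adjusted p = 0.0694). AAAAAAAA was less frequent, at 8.78% against 12.8% (exact adjusted p = 0.0149), and among the highest summits of replicate 2 alone the difference was -3.26 points (adjusted p = 0.0599). The run of 6 C differed by -0.850 points (-3.90 to 1.96, exact adjusted p = 0.851) and the run of 5 C by -1.63 points (-5.75 to 2.38, adjusted p = 0.763), so a difference of a few points in either direction remains possible.

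Against promoter summits, 3 of the 20 words were less frequent at the intronic sites and 4 more frequent. TATCGATA was at 0.402% of intronic sites, 7 in number, against 5.57% of promoter summits (Fisher's exact test, adjusted p = 3.78e-27), and GGTCACAC at 0.172% against 4.33% (adjusted p = 5.18e-24). GAGAGAG, also found at promoters, was at 4.77% against 5.35% (exact adjusted p = 0.757). GATAA was at 62.2% against 51.8% (exact adjusted p = 1.40e-13), the run of 6 C at 12.4% against 6.94% (adjusted p = 2.43e-11), CACACACA at 8.32% against 6.13% (adjusted p = 0.00997) and TGACGTCA at 1.26% against 0.512% (adjusted p = 0.0135). CGATA was less frequent, at 36.5% against 40.4% (exact adjusted p = 0.0156). Among the summits above the median signal CGATA (exact adjusted p = 0.845), CACACACA (adjusted p = 0.232) and TGACGTCA (adjusted p = 0.837) did not pass, and in either replicate's highest summits alone TGACGTCA did not. CGATA also did not pass in the highest summits of replicate 1 alone (exact adjusted p = 0.108) or, with CACACACA, in a 50 bp window (adjusted p = 0.130 and 0.232). The run of 5 C was at 31.3% against 19.9%, a difference of 11.4 points (9.01 to 13.8, exact adjusted p = 1.87e-21). It was added after the hexamer search at the intronic sites, and its p-value does not allow for that choice.

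Of the 20 words 5 differed between stronger and weaker sites. Between the 871 sites of higher and the 871 of lower signal, a comparison chosen after the data were seen, the run of 6 C stood at 15.5% against 9.30% (Fisher's exact test, adjusted p = 0.00218), the run of 5 C at 35.7% against 26.9% (adjusted p = 0.000801) and GATAAG at 39.7% against 30.1% (adjusted p = 0.000651). GATAA was at 66.5% against 58.0% (exact adjusted p = 0.00306), CCGCCC at 9.64% against 6.09% (adjusted p = 0.0369), CGATA at 39.7% against 33.3% (adjusted p = 0.0369) and TTGCNNAA at 11.8% against 16.2% (adjusted p = 0.0421). Ranked by the signal of replicate 2 alone, GATAA (exact adjusted p = 0.403), CCGCCC and also CGATA and TTGCNNAA (adjusted p from 0.372 to 0.403) did not pass, while both C runs still passed, at 16.2% against 8.94% for 6 C (adjusted p = 0.000217) and at 35.4% against 27.3% for 5 C (adjusted p = 0.00513). GATAAG did not pass, at 315 of 828 against 272 of 828 (exact adjusted p = 0.227). In groups of 348 or 349 from the highest signal to the lowest, the run of 6 C was at 22.1, 10.6, 10.6, 11.2 and 7.47% and the run of 5 C at 44.4, 30.4, 27.3, 30.5 and 23.9%. GATAAG was at 44.4, 36.4, 35.1, 31.0 and 27.6% of the same groups.

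Among the 50 highest sites 33 had a run of 5 C, 25 had GATAAG, 20 had both and 12 had neither. Of the 100 highest the run was at 64, against 545 of all 1742. Those without either element included some of the strongest: Trl, CG11050, the ush site with 6567 and CG32772 with 4568 were each in the highest 20. The 5 sites of the highest 20 without either had GC contents of 34.8 to 49.8%, against 39.8 to 61.2% for the 15 others. These counts are a description of the sites and were not tested.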

How the data were processed

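The peak lists were deposited by the authors as summits on dm6 for each of the 2 replicates, for pooled reads and for the set kept by IDR, per the file headers and the texts beside them. For each summit the authors give a signal score, scaled within its own list, a −log10 q, and the offset of the summit in its interval. The −log10 q deposited for the IDR set is 4.38 in every row and was not used. Replicate lists hold 30000 rows each and were capped. The sources used here give no aligner, caller or depth, so intervals cover counting of summits only, and the control was not analysed here. For 2 of the 9342 IDR summits an offset beyond the interval was cut back to its last base. The highest 9342 summits of replicate 1 include 21 mitochondrial ones.

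Genes and TSSs came from Ensembl release 115 without transposable elements, and sequence from the RefSeq copy of the same assembly. Summits were classed by position. A replicate recovered a summit if its list had one within 100 bp. Exact McNemar and Fisher's exact tests, two-sided, were adjusted by Benjamini-Hochberg over the 2 comparisons, the 20 words, both word comparisons together, or 2080 hexamers. The added words were adjusted with the others, over 22 words, and in the class comparisons over the 22 words and both classes together. The threshold was 0.05. Shares have 95% Wilson intervals and differences Newcombe intervals. Overlapping windows of neighbouring summits are not independent. The tests were tested on simulated data. Gene names of 26 lists were matched by symbol or RefSeq synonym, and 3 were not matched. Named genes are those of the 15 highest sites, with only the highest within 1 kb, the 6 genes with the most sites, up to 3 genes per list with the strongest site, sites in sug and sites at the distance limits. The members and lists were chosen with earlier results of these data known. The hexamers, the added words and the split by signal were chosen after the data were seen. Computations used Python 3.11.15, numpy 2.4.6, scipy 1.17.1, pandas 2.3.3 and matplotlib 3.10.9.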

Additional observations from a re-analysis of the deposited data

How the results depend on the processing

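Alternatives were the IDR summits above the median signal, as many of the highest summits of either replicate list, the highest summit of each interval, protein-coding starts only, other distance limits, other distances for recovery, and other windows and flanks. Of 78 values of main results under them, 64 were classed as unchanged, and 8 counts or shares as moved. Most of the 78 are counts or shares to which no threshold applies. A count classed as unchanged could still shift, as with 1278 sites at limits of 1.5 and 5 kb. Of the differences with a test, 4 passed the threshold only under an alternative and 2 no longer passed. In the higher-signal set the sites numbered 834, the share of eligible genes with a site was 8.26%, and 71 hexamers were less frequent at the summit. Recovery in both replicates exceeded that of promoter summits by 1.83 points within 200 bp (exact adjusted p = 0.00368). With the highest summit of each interval the excess was 2.33 points (exact adjusted p = 0.0104). Since the IDR set was chosen on both replicates, recovery is largely fixed by that choice, and these differences are no separate finding. For signal above the 80th percentile in place of the median, the difference was 7.19 points from deep intronic summits (exact adjusted p = 3.14e-05) and -1.66 points from promoter summits (adjusted p = 0.142).

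With a 50 bp window, 3 words were more frequent at the summit than to the left, and 2 were more frequent than at promoters. With the flank at 1000 bp, 1 word was less frequent. With the highest summit of each interval, 1 word was more frequent than at deep intronic summits. Leaving out a replicate gave 1719 to 1731 sites, differences in signal of 3.57 to 6.19 points from deep intronic and of -5.60 to -1.84 points from promoter summits, 4 to 5 words more frequent and 3 less frequent than in the left flank, 2 more and 0 to 1 less frequent than at deep intronic summits, 4 to 5 more and 2 to 3 less frequent than at promoters, 13.5 to 13.7% of eligible genes with a site, and 106 to 121 hexamers more and 94 to 116 less frequent. Of 134 values of single words, 108 kept their side of the threshold, 25 lost it and 1 reversed: TGACGTCA against promoter summits was -0.101 points with a 50 bp window (exact adjusted p = 0.873). The cause of these shifts was not tested.

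GATAAG led the hexamers under all 5 alternatives run for them. No paired analysis was possible because the series has 1 group and the replicate numbers pair nothing. Depth is unknown here, so no precision per summit can be given.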

Other observations

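Strong intronic sites also lay in genes outside the lists, named here after their values were seen. Kdm2, a histone demethylase, had 3716 at a summit whose surrounding 201 bp had a GC content of 22.4%, with 2226 in replicate 1 and 1517 in replicate 2. Tlk, a chromatin kinase, held 8 sites up to 3898, and Vha16-1, a subunit of the vacuolar proton pump, had 3552. Overlapping genes shared some sites: the summit of 3617 lay within lncRNA:CR45179, CG43954 and Lasp, and that of 3100 within sws and sn. The signalling genes norpA, phospholipase C of vision, and for, the foraging protein kinase, had 3099 and 2617, and cu (curled) had 2505. Of the 20, 50 and 100 highest sites, 6, 19 and 52 had another IDR summit within 1 kb (30, 38 and 52%). Of all 1742 sites 734 did (42.1%), so the share lay below or above this by cut-off, and it was not tested.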
